A study of Mus musculus with 8 samples.

Results

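The 10 genes described here encode the enzymes that make glutathione (Gclc, Gclm and Gss), return it to its reduced form (Gsr), spend it on peroxides (Gpx1, Gpx3 and Gpx4) and attach it to other molecules (Mgst1, Gstm1 and Gsta4). They were chosen by name, as a list of glutathione enzymes, from the 31053 genes of the count table, with earlier results of these data known. All 10 passed the filter on low counts that left 9264 genes for testing. The counts are from bulk RNA-seq of brown adipose tissue (BAT), the heat-producing fat of rodents, in 4 wild-type (WT) and 4 db/db animals, each 8 weeks old. The db/db mice carry a mutation of the leptin receptor gene Lepr in every cell, not in adipocytes alone, and become obese and diabetic through overeating. The labels give C57BL6/J as the strain of all 8 animals, and by the methods all were males on normal diet whose tissue was taken after a fast. The methods name the db/db line as B6.BKS(D)-Lepr db/J from the Jackson Laboratory and the WT supplier as Charles River. The study's resource list instead gives the Jackson Laboratory for C57BL/6J and, for db/db, the stock of a line on the C57BLKS background. The supplier of the WT mice and the background of the db/db mice are therefore unsettled, and where either differed, it cannot be told apart from genotype in any value below.

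Glutathione is a small peptide of glutamate, cysteine and glycine whose thiol group serves as the main soluble reductant of the cell. Glutamate-cysteine ligase and then glutathione synthetase build it, glutathione peroxidases oxidise it while reducing hydrogen peroxide or lipid peroxides, and glutathione reductase restores it with NADPH. Transferases join it to reactive lipid aldehydes and foreign compounds, a reaction of interest in BAT, where dense mitochondria and stored lipid make peroxides and aldehydes common products.

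Total counts lay between 2374079 and 3240074 per library, and a detection floor of 3 counts corresponded to 0.902 to 1.33 CPM, the count scaled to a common library size. The floor covers counting error only. The library db/db 1 stood apart from the rest of its genotype. Its chi-square over degrees of freedom against the other db/db libraries was 13.0 to 16.3, where those differed from each other by 6.40 to 8.57, and its skeletal muscle markers were the highest of all libraries. Without it the same 4 genes described below were called, among 2250 called over all genes, beside 2568 with it. The mutated gene Lepr had 0 counts in all 8 libraries and so gave no check of the labels. Although the labels give the stromal vascular fraction as the cell type, the 7 brown adipocyte markers summed to between 8878 and 10548 CPM in WT and between 3707 and 6752 CPM in db/db, which places mature brown adipocytes in the samples. In bulk tissue, fewer cells of a type and less RNA per cell cannot be told apart, and this holds for each difference below.

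In db/db BAT, transcripts of Gpx1 and Gstm1 were higher and those of Gpx3 and Gsta4 were lower, while the 3 synthesis genes, Gsr, Gpx4 and Mgst1 did not pass the test. A gene was called when its p-value in the quasi-likelihood test of edgeR, adjusted over all 9264 genes by the Benjamini-Hochberg method, was under 0.05. By this rule 4 of the 10 genes were called, against 27.7% of all genes tested. The 10 genes and the wider lists below were chosen with earlier results of these data known, so their shares are a description. The 2 higher genes stand beside a background of 15.8% called higher, and the 2 lower genes beside 11.9% called lower. The same 4 genes were those whose WT and db/db libraries did not overlap, a property of 28.1% of all genes. The median log2 fold change was -0.01 over the 10 genes and 0.01 over all genes tested.

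**Figure D1:**
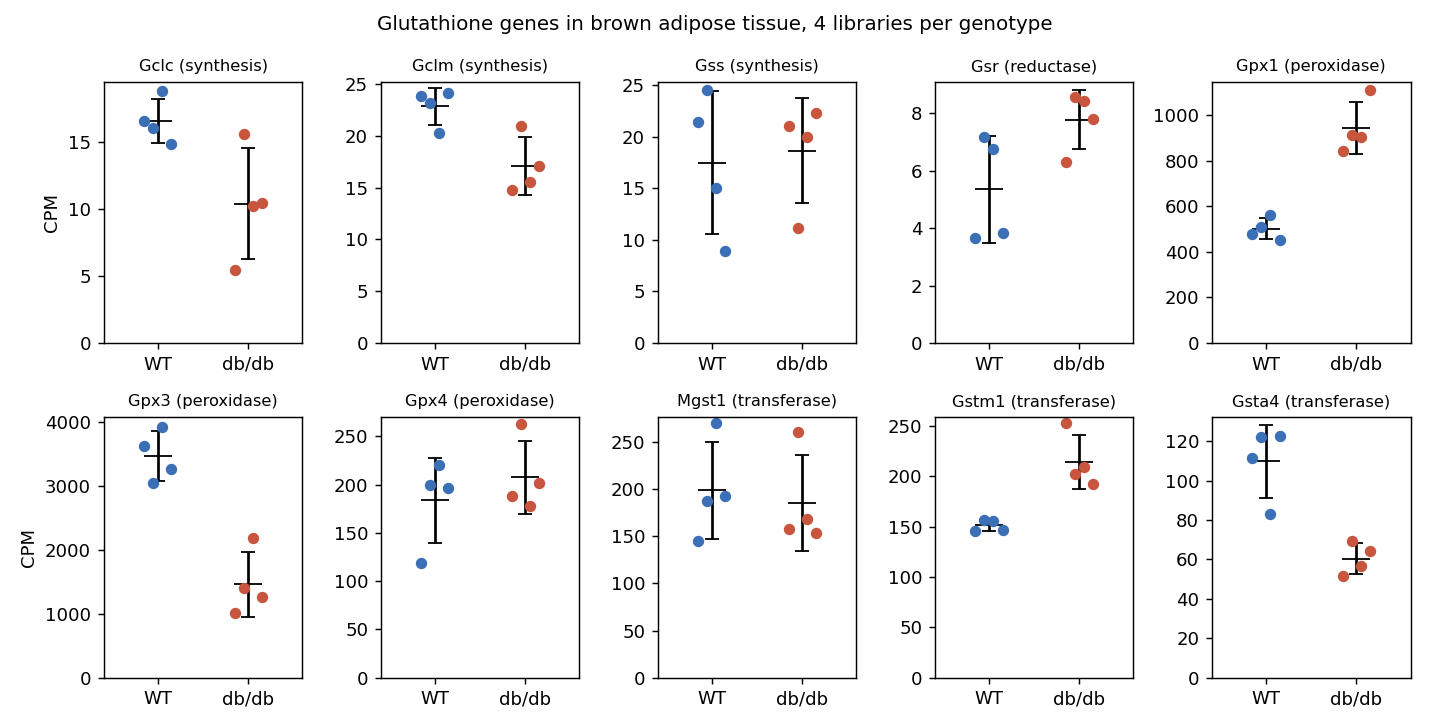
CPM (y axis, from 0) of the 10 glutathione genes in the 4 WT (blue) and 4 db/db (red) libraries, with the mean (line) and SD (bar) of each genotype. The points of the genotypes are fully separated for Gpx1, Gpx3, Gstm1 and Gsta4, and overlap for the other 6 genes.

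**Figure D2:**
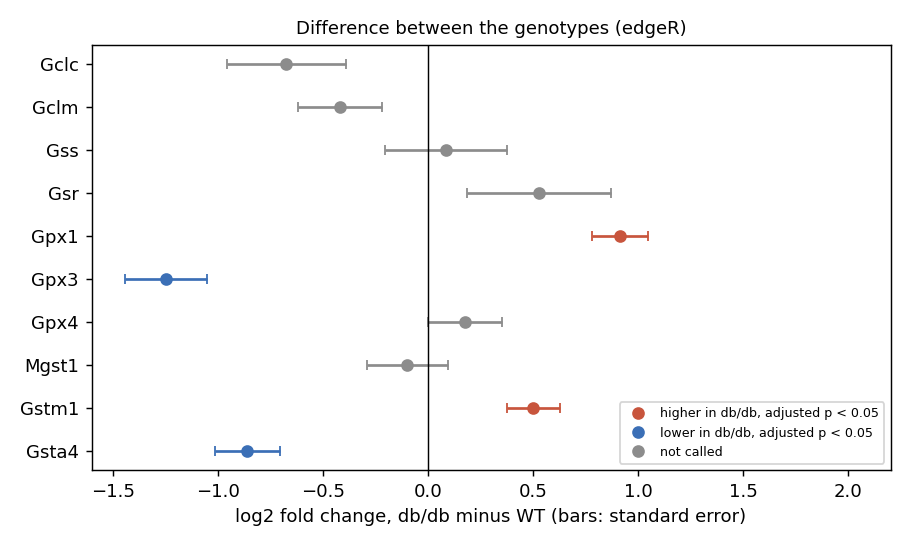
Log2 fold change of the 10 genes, db/db minus WT (x axis), from edgeR with its standard error (bars), coloured by call at an adjusted p of 0.05. Gpx1 at 0.91 and Gpx3 at -1.25 mark the ends of the range, and both are peroxidases.

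Synthesis begins with glutamate-cysteine ligase, whose catalytic subunit is Gclc (ENSMUSG00000032350, chr9:77754535-77794485 on the plus strand of GRCm38, the build also called mm10). Its CPM was 16.6, 16.04, 18.8 and 14.9 in WT and 5.41, 15.6, 10.2 and 10.4 in db/db. All db/db libraries but db/db 2 lay below the WT range. From a WT mean of 16.6 ± 1.65 to a db/db mean of 10.4 ± 4.16 (SD, n = 4 each), the log2 fold change of -0.67 (SE 0.28) did not pass the test (edgeR, adjusted p = 0.0884). Without db/db 1, the lowest library, the value was -0.45 (edgeR adjusted p = 0.221). Leaving out db/db 2 gave -0.96 with an adjusted p of 0.0236, and keeping all genes that had any count gave -0.72 with an adjusted p of 0.0493 (edgeR in both), so the call of Gclc turned on 1 library and on the filter.

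Gclm (ENSMUSG00000028124, chr3:122245557-122270732, plus strand) encodes the modifier subunit, which lowers the sensitivity of the ligase to inhibition by glutathione. Its CPM was 23.9, 23.2, 20.3 and 24.2 in WT and 14.7, 21.0, 15.5 and 17.1 in db/db, and db/db 2 was again the library that reached into the WT range. With means of 22.9 ± 1.78 and 17.1 ± 2.78 CPM (SD, n = 4 each), the log2 fold change was -0.42 (SE 0.20) and did not pass (edgeR, adjusted p = 0.132). Of the stretches of 75 bases, the read length, in the Gclm transcripts, 3.50% also occur in transcripts of other genes, and its exons overlap Gm6061 on the same strand and Gm17494 on the other, so that its count is uncertain.

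Gss (ENSMUSG00000027610, chr2:155563181-155592810, minus strand) encodes glutathione synthetase, which adds the glycine. Its CPM spread widely within both genotypes, at 21.4, 24.5, 15.03 and 8.91 in WT and 21.1, 11.1, 19.9 and 22.3 in db/db. The genotypes covered much the same range, with means of 17.5 ± 6.93 and 18.6 ± 5.08 CPM (SD, n = 4 each), and the log2 fold change was 0.09 (SE 0.29, edgeR adjusted p = 0.860). Exons of Gss overlap those of Acss2, Gssos1 and Gssos2 on the other strand, and since it is not stated whether counting used the strand, reads of these genes cannot be told apart from those of Gss.

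Gsr (ENSMUSG00000031584, chr8:33652523-33698163, plus strand), the glutathione reductase, was near the limit of this depth, with 9 to 18 counts in WT and 19 to 27 in db/db. Its CPM was 3.64, 7.17, 6.76 and 3.82 in WT and 6.32, 8.59, 8.42 and 7.81 in db/db. The genotypes overlapped because WT 2 and WT 3 lay above db/db 1. Means were 5.35 ± 1.88 and 7.79 ± 1.03 CPM (SD, n = 4 each), and the log2 fold change of 0.53 (SE 0.34) did not pass (edgeR, adjusted p = 0.274).

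The peroxidases differ in the residue at the active site. The stretches below, read from the GENCODE M21 annotation on GRCm38, are shown because the family divides at this codon, which stands in capitals. In Gpx1, Gpx3 and Gpx4 it is a TGA that is annotated as selenocysteine and not as a stop, and in Gpx7 and Gpx8, the other peroxidases detected, it is a cysteine codon. Each codon is flanked by 15 bases of coding sequence, written 5′ to 3′ on the strand of the gene. The codons lie at chr9:108339451-108339453 (Gpx1, plus strand), chr11:54907256-54907258 (Gpx3, plus), chr10:80054737-80054739 (Gpx4, plus), chr4:108403430-108403432 (Gpx7, minus) and chr13:113045661-113045663 (Gpx8, minus).
Gpx1: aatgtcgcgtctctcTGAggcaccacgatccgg
Gpx3: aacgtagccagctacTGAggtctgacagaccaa
Gpx4: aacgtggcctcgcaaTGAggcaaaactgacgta
Gpx7: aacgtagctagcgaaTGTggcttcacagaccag
Gpx8: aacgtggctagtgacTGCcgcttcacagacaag

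Gpx1 (ENSMUSG00000063856, chr9:108338903-108340343, plus strand) encodes the peroxidase of the cytosol and mitochondria, which reduces hydrogen peroxide. Its CPM was 478, 509, 562 and 453 in WT and 844, 912, 905 and 1110 in db/db. Every db/db library lay above every WT library, and the highest was db/db 4. The mean rose from 500.4 ± 46.8 to 943 ± 116 CPM (SD, n = 4 each), a log2 fold change of 0.91 (SE 0.13, 1.88-fold, edgeR adjusted p = 6.79e-05). This was the largest rise among the 10 genes, and 83.4% of all genes tested had a smaller absolute log2 fold change.

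Gpx3 (ENSMUSG00000018339, chr11:54902453-54910377, plus strand) encodes the secreted peroxidase of plasma and extracellular fluid. Its CPM was 3622, 3048, 3933 and 3274 in WT and 1009, 1400, 2184 and 1258 in db/db. The genotypes did not overlap, and db/db 3 was the db/db library nearest to WT. The mean fell from 3469 ± 389 to 1463 ± 507 CPM (SD, n = 4 each), a log2 fold change of -1.25 (SE 0.20, 2.37-fold lower, edgeR adjusted p = 0.000125). This was the largest change among the 10 genes, with 90.1% of all genes tested having a smaller one. Gpx1 and Gpx3, both selenoproteins, therefore moved in opposite directions.

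Gpx4 (ENSMUSG00000075706, chr10:80047166-80056439, plus strand) encodes the peroxidase that reduces phospholipid peroxides within membranes and protects cells from ferroptosis. Its CPM was 119, 199, 220 and 197 in WT and 188, 263, 178 and 202 in db/db. The genotypes overlapped, and WT 1 was the lowest library of all. Means of 184 ± 44.3 and 207 ± 38.2 CPM (SD, n = 4 each) gave a log2 fold change of 0.18 (SE 0.18, edgeR adjusted p = 0.5005), and of -0.003 without WT 1. Of the 75-base stretches of its transcripts, 29.8% also occur in Gpx4-ps2 or AC122253.3, so part of its reads could have been lost or counted elsewhere.

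Because libraries differ in depth and composition, pairs of these enzymes were also compared as log2 ratios within a library. A prior count of 2, scaled to library size, was added to each count. The ratios depend on the scaling of libraries only through this prior. The log2 ratio of Gpx3 to Gpx4 was 4.92, 3.93, 4.16 and 4.05 in WT and 2.42, 2.41, 3.61 and 2.64 in db/db, without overlap. Means of 4.26 ± 0.45 and 2.77 ± 0.57 (SD, n = 4 each) differed by -1.49, with p = 0.0286 in the exact two-sided permutation test, the smallest that 4 against 4 libraries allow, and 0.0857 after adjustment over the 3 ratios. For Gpx1 to Gpx4 the log2 ratio was 2.001, 1.35, 1.35 and 1.201 in WT and 2.16, 1.79, 2.34 and 2.46 in db/db. WT 1, the library with the lowest Gpx4, was the WT library that overlapped with db/db, and the difference of 0.71 between the means did not pass (exact permutation p = 0.0571, adjusted 0.0857).

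The log2 ratio of the subunits of the ligase, Gclc to Gclm, had a mean of -0.45 ± 0.24 for WT and of -0.75 ± 0.40 for db/db (SD, n = 4 each). It lay between -0.68 and -0.11 in WT and between -1.33 and -0.41 in db/db, so the genotypes overlapped. The difference of -0.30 between the means did not pass (exact permutation p = 0.314, adjusted 0.314). With 3 ratios and 4 libraries per genotype, an adjusted p under 0.05 could have been reached only if more than 1 of the ratios had the smallest p.

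**Figure D3:**
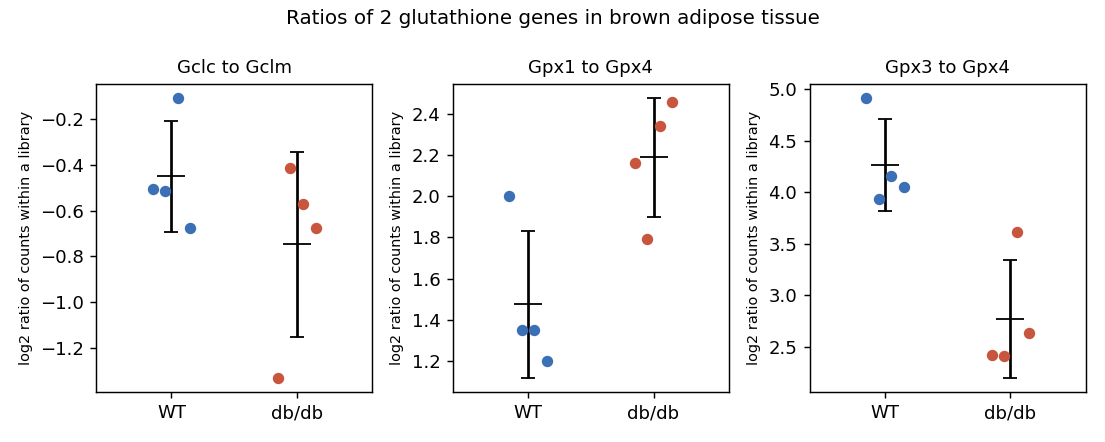
Log2 ratio of 2 genes within each library in WT (blue) and db/db (red), with mean (line) and SD (bar). A prior count of 2 was added to each count, and each panel has a y axis of its own. The ratio of Gpx3 to Gpx4 is the one of the 3 in which the genotypes do not overlap.

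Among the transferases, Mgst1 (ENSMUSG00000008540, chr6:138140316-138156755, plus strand) encodes the microsomal enzyme of the endoplasmic reticulum and outer mitochondrial membrane. Its CPM was 145, 187, 270 and 192 in WT and 158, 261, 169 and 154 in db/db. One library of each genotype, WT 3 and db/db 2, lay above the rest, and the ranges overlapped. Means were 199 ± 51.9 and 185 ± 50.9 CPM (SD, n = 4 each), with a log2 fold change of -0.10 (SE 0.19, edgeR adjusted p = 0.749).

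Gstm1 (ENSMUSG00000058135, chr3:108012255-108017973, minus strand) belongs to the mu class of cytosolic transferases. Its CPM was 146, 157, 156 and 147 in WT, a narrow range, and 253, 203, 209 and 192 in db/db. All db/db libraries lay above all WT libraries, with db/db 1 the highest, the library with the most muscle marker counts. The mean rose from 151 ± 5.92 to 214 ± 26.9 CPM (SD, n = 4 each), a log2 fold change of 0.50 (SE 0.13, 1.42-fold, edgeR adjusted p = 0.00705), and 0.40 without db/db 1 (edgeR adjusted p = 0.0225). Since 11.7% of the 75-base stretches of its transcripts also occur in Gstm3, Gm8834 or Gstm2-ps1, its count is uncertain where reads fell there.

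Gsta4 (ENSMUSG00000032348, chr9:78182774-78209349, plus strand) encodes the alpha-class transferase with high activity toward 4-hydroxynonenal, an aldehyde formed from peroxidised lipids. Its CPM was 112, 122, 83.0 and 123 in WT and 51.4, 69.4, 56.7 and 64.4 in db/db. The lowest WT library, WT 3, still lay above the highest db/db library. The mean fell from 110 ± 18.6 to 60.5 ± 7.95 CPM (SD, n = 4 each), a log2 fold change of -0.86 (SE 0.16, 1.81-fold lower, edgeR adjusted p = 0.000478). The called transferases thus also moved in opposite directions.

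Within a genotype the genes did not vary as 1 block. Among the db/db libraries, db/db 2 was the highest for 6 of the 10 genes and db/db 1 the lowest for 6, while among WT libraries WT 3 was the highest for 5 and WT 1 for 0. Over the 8 libraries, taken as deviations of log2 CPM from the genotype means, the pair most alike of the 45 was Gpx4 with Mgst1 (Pearson r = 0.85, Spearman rho = 0.88), followed by Gclm with Gsta4 (r = 0.84, rho = 0.90). The pair least alike was Gclc with Gstm1 (r = -0.74, rho = -0.57). These values are a description without a test, and the points share library depth and composition.

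Markers of other cell types moved with the genotype. The 8 macrophage markers were called higher in 8 of 8, with a sum of 154 to 202 CPM in WT and 731 to 1286 CPM in db/db, and the 5 markers of lipid-associated macrophages, of which 4 were tested and 4 called higher, summed to 8.49 to 27.1 CPM in WT and 195 to 389 CPM in db/db. The 5 fibroblast markers rose in 5 of 5, from 475 to 587 CPM in WT to 903 to 1889 CPM in db/db, and the 5 tested of the 7 brown adipocyte markers fell in 5 of 5. General adipocyte markers did not follow the brown ones. Of these 5, Plin1 (1.73-fold) and Fabp4 (1.57-fold) rose and 0 fell, and their sums of 8179 to 14688 CPM in WT and 13864 to 18848 CPM in db/db overlapped. The 4 endothelial markers summed to 240 to 297 CPM in WT and 188 to 218 CPM in db/db, but 1 of the 4, Kdr, was called lower and the other 3 overlapped, with Cldn5 at 0.31 on the log2 scale. White adipocyte markers, 4 genes of which 3 were called higher, summed to 98.3 to 272 CPM in WT and 1247 to 1371 CPM in db/db. The remaining gene, Retn, overlapped between the genotypes at -0.13 on the log2 scale. The 3 neutrophil markers, with 1 of 2 tested called higher, summed to 0.752 to 11.9 CPM in WT and 21.3 to 25.6 CPM in db/db, and the 4 T and B cell markers to at most 3.61 CPM in any library, with Cd79a at 0 in all. The part of these cells in the values of the 10 genes was not tested.

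Skeletal muscle markers were called higher in 8 of 8 and summed to 369 to 1266 CPM in WT and 1859 to 9245 CPM in db/db, none of them at 0 in all libraries. With the muscle score (the mean log2 CPM of these markers) as a covariate in edgeR, Gpx1 was the one gene of the 10 that remained called, and its log2 fold change was 1.18 (adjusted p = 0.00306). Under that covariate Gpx3 was at -1.04 (adjusted p = 0.102), Gsta4 at -0.76 (adjusted p = 0.135) and Gstm1 at 0.24 (adjusted p = 0.666, edgeR for each). Calls over all genes went from 2568 to 489 in that fit, in which the muscle scores of the genotypes do not overlap, so score and genotype cannot be told apart.

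The 5 erythroid markers, the globins and Alas2, summed to 3106 to 8715 CPM in WT and 6472 to 17009 CPM in db/db, which overlapped, and 1 of the 5 was called higher. The highest sum and the highest Gpx1 were both in db/db 4. Without that library Gpx1 was at 0.82 (edgeR, adjusted p = 0.000236). With the mean log2 CPM of these markers as a covariate, which was added once the data had been seen, Gpx1 was at 0.79 (edgeR, adjusted p = 0.00204) and the same 4 of the 10 genes were called. Over all 9264 genes, 2028 were called in that fit. The part of red cells in the level of Gpx1 was not tested beyond these fits.

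Around the 10 genes, 84 other genes of glutathione and thiol metabolism in 10 lists were examined, of which 61 passed the filter and 9 had 0 counts in every library. With the 10 genes included, 29 of the 71 tested were called, 16 higher and 13 lower, beside 27.7% of all genes, and the median log2 fold change was 0.18. With the muscle score as a covariate, in which 489 of 9264 genes were called, 3 of the 71 remained, Gpx1, Dpep1 and Ltc4s, and every other call of these lists, including those named below, was lost. Of these 26, the absolute log2 fold change was larger than without the score in 5 (Slc1a5, Idh2, Gpx8, Glrx3 and Mgst3) and smaller in 21, in 9 of them by over 1.5 times. With the erythroid score, where 2028 of 9264 were called, 21 of the 71 remained, and the calls of Slc1a5, Oplah, Gpx7, Gpx8, Glrx3, Txn2, Gstz1 and Gsto1 were lost. The plot of the lists shows calls in both directions in 5 of the 10.

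**Figure D4:**
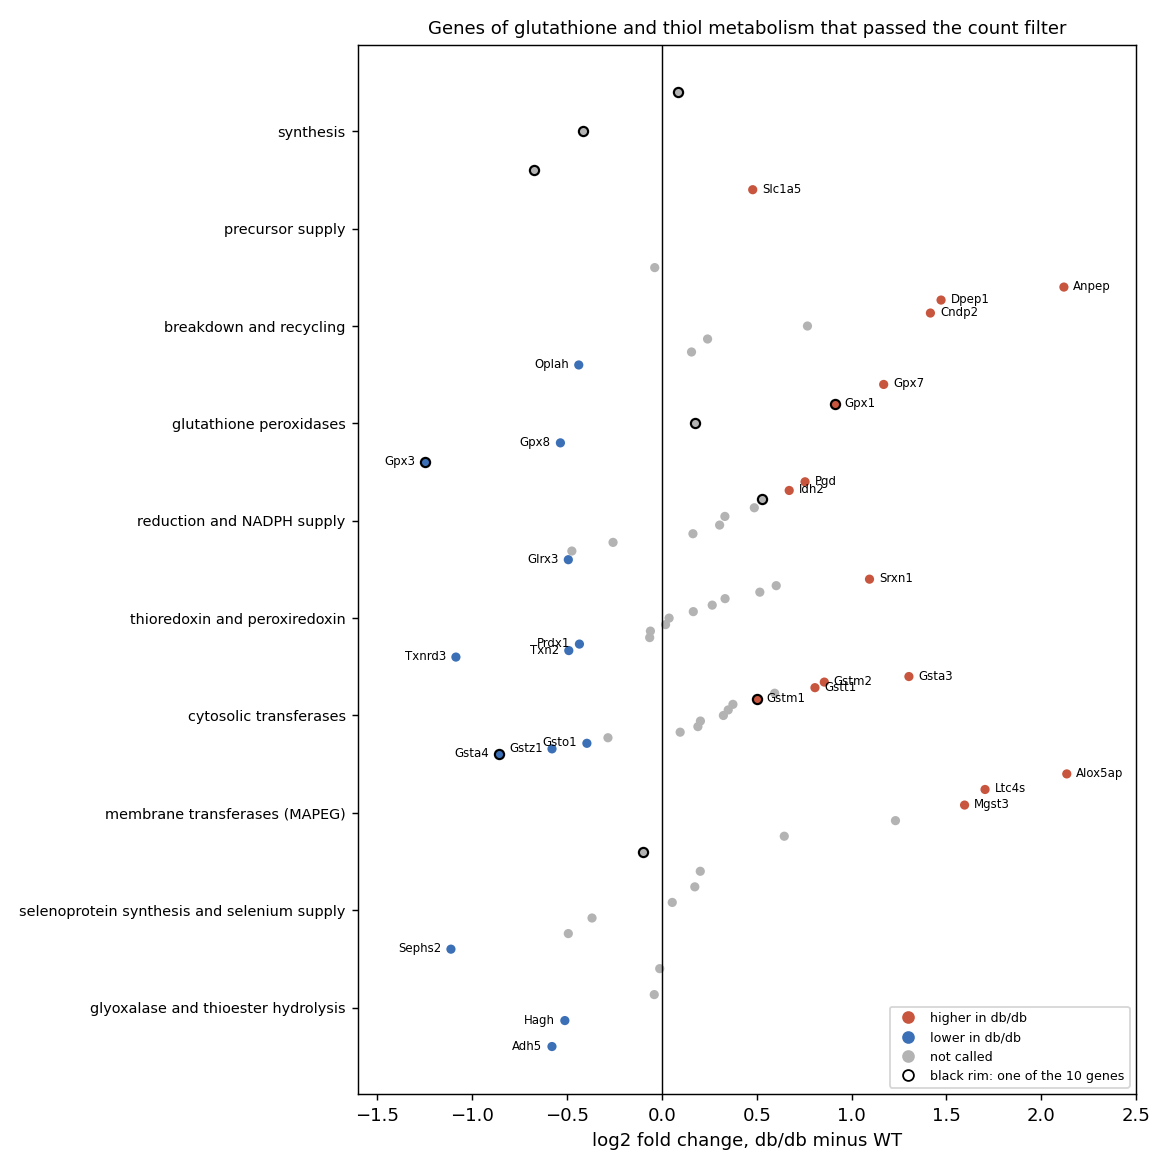
Log2 fold change from edgeR, db/db minus WT (x axis), of the 71 tested genes of 10 lists (y axis, the height within a list only spreads the points). Red and blue points are genes called higher or lower at an adjusted p of 0.05, grey points were not called, and a black rim marks the 10 glutathione genes. The largest rises, Alox5ap at 2.13 and Anpep at 2.12, lie in the lists of membrane transferases and glutathione breakdown.

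In precursor supply 1 of the 2 tested genes of 6 rose, the neutral amino acid transporter Slc1a5 at 0.48 (SE 0.14, edgeR adjusted p = 0.0139), a call lost without WT 3 or WT 4 (up to 0.0626), with the erythroid score (0.41, adjusted p = 0.104) and with the muscle score (0.79, adjusted p = 0.0522). Slc7a11, the cystine carrier, had 0 counts in all libraries. Cth, Cbs and Slc1a4, named after their values were seen, did not pass the filter. Their means were 3.45, 1.22 and 3.59 CPM in WT and 0.540, 0.315 and 1.84 CPM in db/db. Among 7 tested genes of breakdown and recycling 3 rose and 1 fell. The 3 were the peptidases that cleave glutathione fragments: Anpep went from 2.30 ± 0.998 to 10.2 ± 1.58 CPM (SD, n = 4 each), a log2 fold change of 2.12 (SE 0.38, edgeR adjusted p = 0.000385), Dpep1 from 30.1 ± 4.91 to 83.5 ± 7.78 CPM, and Cndp2 from 6.36 ± 1.42 to 17.0 ± 2.69 CPM. Oplah, the 5-oxoprolinase that recovers glutamate, had a log2 fold change of -0.44 (SE 0.14, edgeR adjusted p = 0.0276). This call was lost without WT 1, WT 4, db/db 1, db/db 3 or db/db 4 (adjusted p of up to 0.0800), the value was -0.27 with the muscle score (adjusted p = 0.681), and its exons overlap Exosc4 and Smpd5 on the other strand.

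Of the 8 peroxidases 5 were tested, and Gpx2, Gpx5 and Gpx6 had 0 counts in all libraries. Gpx7, an endoplasmic reticulum enzyme, rose from 4.75 ± 2.11 to 10.5 ± 2.65 CPM (SD, n = 4 each), a log2 fold change of 1.17 (SE 0.36, edgeR adjusted p = 0.0212). That call was lost without WT 1, WT 3, db/db 1 or db/db 2 (adjusted p of up to 0.0694), and the value was 0.51 with the muscle score (adjusted p = 0.740). Gpx8, an enzyme of the same compartment, had a log2 fold change of -0.53 (SE 0.19, edgeR adjusted p = 0.0492) with overlap between the genotypes, and it was called in 7 of 20 fits. DESeq2 (adjusted p = 0.0576), limma-voom (0.0506), the replicate block (0.0700), another scaling, a stricter filter, both covariates and leaving out any library except WT 1 or db/db 2 each ended it. With the muscle score its value was -0.73 (edgeR adjusted p = 0.3045). Among the selenocysteine enzymes, Gpx1 rose, Gpx3 fell and Gpx4 was not called.

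The reduction and NADPH list held 10 tested genes of 11, of which 2 rose and 1 fell. Pgd, of the pentose phosphate pathway, rose at 0.76 (SE 0.16, edgeR adjusted p = 0.00202), and Idh2, the mitochondrial isocitrate dehydrogenase that makes NADPH, at 0.67 (SE 0.15, edgeR adjusted p = 0.00303). With the muscle score Pgd was at 0.47 (edgeR adjusted p = 0.390) and Idh2 at 0.86 (edgeR adjusted p = 0.0631). The glutaredoxin Glrx3 fell by 0.49 in log2 terms (SE 0.14, edgeR adjusted p = 0.0126), and was at -0.53 with the muscle score (adjusted p = 0.266). In the parallel thioredoxin and peroxiredoxin system 13 of 13 genes were tested, 1 rose and 3 fell. Srxn1, which repairs overoxidised peroxiredoxins, rose at 1.09 (SE 0.19, edgeR adjusted p = 0.000336), while Txnrd3 fell by 1.09 (SE 0.28, adjusted p = 0.00831, but at -0.30 with an adjusted p of 0.803 under the muscle score), Txn2 by 0.49 (SE 0.16, adjusted p = 0.0270) and Prdx1 by 0.43 on the log2 scale (SE 0.13, adjusted p = 0.0187). With the muscle score Txn2 was at -0.16 (edgeR adjusted p = 0.829). The call of Txn2 was also lost without WT 1, WT 2, WT 4, db/db 1 or db/db 2 (edgeR adjusted p of up to 0.0766), and that of Prdx1 without WT 2, WT 4 or db/db 2 (up to 0.0588).

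Of 24 cytosolic transferases 15 were tested, 4 rose and 3 fell. Beside Gstm1 and Gsta4, Gstz1, which isomerises maleylacetoacetate, fell by 0.58 (SE 0.15, edgeR adjusted p = 0.00785), and its exons overlap Pomt2 on the other strand. The remaining calls, named after their values were seen, were Gsta3 at 1.30, Gstm2 at 0.86, Gstt1 at 0.81 and Gsto1 at -0.39 on the log2 scale. Under the muscle score Gsta3 was at 0.80 and Gsto1 at -0.01. Gsto1 was called in 10 of 20 fits and lost its call without any WT library, db/db 1 or db/db 3 (edgeR adjusted p of up to 0.135). Gsta3 lost it without WT 2, WT 4 or db/db 1 (up to 0.0866). Of the 5 tested mu class genes, Gstm1 and Gstm2 rose, and Gstm4 at 0.32, Gstm5 at 0.20 and Gstm7 at 0.35 were not called.

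The membrane-bound family to which Mgst1 belongs held 6 genes, all tested, of which 3 rose and 0 fell. Alox5ap, which presents arachidonate to the lipoxygenase of leukotriene synthesis, went from 4.45, 3.38, 5.64 and 4.67 CPM in WT to 32.8, 11.8, 14.6 and 20.8 CPM in db/db, a log2 fold change of 2.13 (SE 0.34, edgeR adjusted p = 0.000164). Ltc4s, the leukotriene C4 synthase, went from 15.4 ± 6.74 to 50.5 ± 7.94 CPM (SD, n = 4 each), a log2 fold change of 1.70 (SE 0.26, edgeR adjusted p = 9.68e-05). Both act in leukotriene synthesis and are known from myeloid cells, whose markers rose as given above, and the part of those cells was not tested. Mgst3, the third, went from 11.3 ± 6.29 to 34.8 ± 8.75 CPM, a log2 fold change of 1.596 (SE 0.30, edgeR adjusted p = 0.00062). Exons of Alox5ap and Ltc4s overlap Gm19719 and Gm26542 on the other strand.

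In selenoprotein synthesis and selenium supply 1 of 6 tested genes of 8 fell and 0 rose. Sephs2, which makes the selenophosphate used to form selenocysteine, went from 85.4, 92.0, 114 and 128 CPM in WT to 34.3, 53.8, 47.0 and 59.1 CPM in db/db, without overlap, a log2 fold change of -1.11 (SE 0.18, edgeR adjusted p = 0.000161). Its exons overlap Gm44729 on the other strand. In the glyoxalase and thioester list 2 of 4 tested genes fell. Hagh, which frees glutathione from lactoylglutathione, was at -0.51 (SE 0.16, edgeR adjusted p = 0.0272), a call lost without WT 2, WT 4 or db/db 1 (up to 0.0833) and at -0.28 with the muscle score (0.704), and Adh5, which oxidises S-hydroxymethylglutathione, at -0.58 (SE 0.14, edgeR adjusted p = 0.00363).

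The antioxidant response element, the site through which Nrf2 acts on many glutathione genes, has the core TGACNNNGC. It was searched on both strands in RefSeq promoter windows of GRCm38.p6 from 250 bases before to 50 after a gene's start. Windows were found for 7 of the 10 genes, and Gsr, Gclc and Gsta4 had none. These genes had 12 windows in all, and the motif stood in 2 of the 12, 1 of Gclm and 1 of Mgst1, beside 12.4% of all 32851 windows. The matches, shown because these are the 2 members with one, are printed with 10 bases on each side, and the printed stretches lie at chr3:122245413-122245441 for Gclm and at chr6:138140461-138140489 for Mgst1. They are given on the plus strand, which is the strand of both genes, with the match in capitals as its reverse complement. Neither gene was called, and a match of letters is a description and not a site.
Gclm: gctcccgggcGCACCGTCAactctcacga
Mgst1: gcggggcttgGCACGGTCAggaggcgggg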

How the data were processed

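RNA of BAT from 4 WT and 4 db/db mice was sequenced by a commercial provider, single-end. The authors trimmed reads with bbduk, used STAR for alignment to mm10 and HTSeq-count for counts per Ensembl gene, which were deposited raw. The labels also name Trimmomatic, HISAT2 and DESeq2, the last being the authors' test. Whether molecular identifiers were collapsed or strand was used is not given in the sources used here, so counts may include PCR copies. Deposited log2 normalized values and the sample sheet were not used here.

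Identifiers were matched to GENCODE M21 (31011 of 31053). Genes passed filterByExpr (minimum count 10, minimum total 15), leaving 9264, and were scaled by TMM. CPM is the count over the total of these genes and the TMM factor. Genotype alone was tested by quasi-likelihood F in edgeR 4.0.16 (R 4.3.3), with Benjamini-Hochberg adjustment at 0.05, and standard errors were derived from F. Scores, correlations and ratios used log2 CPM with a prior count of 2. Replicates of a genotype differed by more than counting error (chi-square over degrees of freedom 4.16 or more). The procedure was tested on simulated data.

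Named genes were the 10 members, the 5 highest and 5 lowest called pathway genes with a mean of at least 5 CPM, and called genes of lists with 5 or fewer calls. The members and lists were chosen with earlier results of these data known. Alternatives were other scalings, 2 other count filters, omission of mitochondrial genes, limma-voom (limma 3.58.1), DESeq2 1.42.0, a replicate block, the muscle score and leaving out each library, and, added after seeing the data, the erythroid score. Figures were drawn with matplotlib 3.10.9.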

Additional observations from a re-analysis of the deposited data

Results flagged for a closer look

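In 3 of 76 sets of 4 libraries, where chance alone would give about 3.8, a single library lay far from the other libraries of its genotype (gap over range above 0.829). Mgst1 was at 261.2 CPM in db/db 2 against 153.6 to 168.9 CPM in the other db/db libraries. Cndp2 was at 4.245 CPM in WT 4 against 6.88 to 7.175 CPM in the other WT libraries, on a low count. Idh2 was at 323.2 CPM in WT 3 against 378.1 to 384.1 CPM. The causes were not tested.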

How the results depend on the processing

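Across 9 alternatives of scaling, filter, block and tool, the calls of Gpx1, Gpx3, Gstm1 and Gsta4 held, and 302 of 310 values of 35 genes kept direction and side of the threshold, 7 lost the call and 1 gained it (Gclc with every gene tested). With the muscle score as covariate the calls fell from 4 to 1 of the 10 genes, from 29 to 3 of the wider lists and from 2568 to 489 over all genes. Under that score Gclc turned to 0.0502. With the erythroid score Gss turned to -0.12. Leaving out single libraries gave 4 to 5 calls of the 10 genes and 22 to 28 of the wider lists. Over all genes these fits called 2236 to 2483, beside 2568 in the main fit. Signs changed for Gpx4 (-0.00296 without WT 1, range to 0.255), Gss (without WT 3, WT 4 or db/db 4, range -0.139 to 0.278) and Mgst1 (0.0645 without WT 3, range from -0.313), none of which had passed the test. The Gpx3 to Gpx4 ratio differed by -1.775 to -1.276 when single libraries were left out (exact permutation p 0.0286 to 0.0571).

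Replicate numbers are shared by different animals, and same-numbered libraries did not deviate together (r of -0.078 to 0.049). With the replicate block the calls were 4 of the 10 genes, 28 of the wider lists and 2557 over all genes. For the Gpx3 to Gpx4 ratio the mean difference of -1.494 is by definition the same with or without pairs. The exact test of 4 pairs gave p = 0.125, the smallest it can give, so it could not pass 0.05. Depth limited Gsr, Anpep, Gpx7 and Gsta3, which had under 50 counts in each library.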
